A study of Homo sapiens with 2 samples.

Results

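miR-361 and miR-652 are human miRNAs whose hairpins each give a 5p and a 3p mature arm. In both hairpins the 5p arm was lower and the 3p arm higher in a QKI5-overexpressing culture of K562 cells than in a control culture. The 4 arms, miR-361-5p, miR-361-3p, miR-652-5p and miR-652-3p, were taken by name from the 2218 mature miRNAs of the deposited table, and all 4 had reads in both libraries. They were chosen because of their values in these same libraries, so the levels, ratios and shares given below are descriptions, with no test.

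K562 is an erythroleukaemia cell line that grows in suspension. One small RNA library came from K562 cells transduced with a lentivirus that overexpresses QKI5, and 1 from K562 cells transduced with a GFP lentivirus, called QKI5 cells and GFP cells here. QKI5 is the isoform of Quaking, an RNA-binding protein, that is found in the nucleus. Both groups thus carry a lentivirus, and the question was which miRNAs differ when QKI5 is raised. With 1 library per group no difference has a replicate check, and the amount of QKI5 mRNA was not analysed here.

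The QKI5 library rested on 6553945 reads and the GFP library on 23262340 reads, 3.55 times as many. Values are given as RPM, that is reads per 1000000 of these totals, which the authors scaled by and whose makeup is not stated. The intervals are exact 95% intervals that cover counting error only. The erythroid miRNAs miR-451a, miR-144-3p and miR-486-5p summed to 3089 RPM in QKI5 cells and 3875 RPM in GFP cells. Of these, miR-451a and miR-144-3p were lower in QKI5 cells and miR-486-5p higher, at 608 RPM against 528 RPM. The blood precursor and leukocyte miRNAs miR-126-3p, miR-223-3p, miR-142-3p and miR-155-5p summed to 58941 RPM in QKI5 cells and 32693 RPM in GFP cells. Most of that difference was miR-126-3p, at 38674 RPM in QKI5 cells and 14362 RPM in GFP cells. miR-155-5p was barely present, with 1 read in QKI5 cells and 2 in GFP cells. Of the markers of other tissues, the liver miRNA miR-122-5p had 0 reads in QKI5 cells and 1 in GFP cells. The 3 listed epithelial miRNAs summed to 72.6 RPM in QKI5 cells and 64.3 RPM in GFP cells. The 2 listed muscle miRNAs, miR-133a-3p and miR-206, stayed under 1 RPM in both, and the muscle miRNA miR-1-3p was not listed. The neuronal list summed to 343 RPM in QKI5 cells and 382 RPM in GFP cells, nearly all of it miR-9-5p, and the stromal list to 2576 RPM and 2590 RPM in the same order, nearly all of it miR-145-5p. The part of other cell types in the results was not tested.

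A miRNA hairpin is cut out of a longer transcript by Drosha and then trimmed by Dicer to a short duplex. One strand of the duplex is usually kept in an Argonaute protein and the other is mostly degraded, so 1 arm of a hairpin tends to dominate. The kept strand finds its target messages mainly through its seed, bases 2 to 8, so the 5p and 3p arms of 1 hairpin act on different messages. Quaking proteins bind RNA at a site with the core ACUAA and are known for roles in splicing, in RNA stability and in the processing of some miRNAs.

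The mature sequences are shown because the arms of each hairpin carry different seeds, given in capitals, as RefSeq lists them on GRCh38.p14.
hsa-miR-361-5p: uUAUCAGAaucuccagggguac
hsa-miR-361-3p: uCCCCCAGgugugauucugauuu
hsa-miR-652-5p: cAACCCUAggagagggugccauuca
hsa-miR-652-3p: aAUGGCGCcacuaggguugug

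The 4 seeds were all different, and no other entry among the 2370 mature human miRNAs of the RefSeq table had any of them. Over bases 2 to 7 alone, miR-6732-3p matched miR-652-5p. It was barely present, with 0 reads in QKI5 cells and 2 in GFP cells. No stretch of 16 bases of any of the 4 arms occurred in another hairpin of the table. The arms of miR-361 are 22 bases (5p) and 23 bases (3p) long and both begin with U. Those of miR-652 are 25 bases (5p), beginning with C, and 21 bases (3p), beginning with A.

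The hairpins are shown with the arms in capitals, so that the stretch between them can be read.
hsa-miR-361: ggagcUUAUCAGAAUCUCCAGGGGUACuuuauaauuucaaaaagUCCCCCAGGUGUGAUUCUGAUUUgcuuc
hsa-miR-652: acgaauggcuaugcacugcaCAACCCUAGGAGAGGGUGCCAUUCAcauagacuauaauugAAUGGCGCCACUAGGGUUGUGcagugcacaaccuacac

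RefSeq places the miR-361 hairpin at chrX:85903636-85903707 on the minus strand of GRCh38.p14 and the miR-652 hairpin at chrX:110055329-110055426 on the plus strand. These positions are not those of the submitters' build, hg19. In GENCODE release 29 the miR-361 hairpin lies in an intron of CHM, which encodes a Rab escort protein, and the miR-652 hairpin in an intron of TMEM164, which encodes a membrane protein. Each runs in the direction of its host gene and overlaps no exon of it. The hairpins therefore share the X chromosome and an intronic place, but not a host gene or a seed.

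The Quaking core ACUAA was searched on the transcribed strand of the hairpins. It occurred in neither, and in 51 of 1560 human hairpins of the RefSeq table (3.27%). The shorter motif UAAC, which overlaps the core where the core is followed by C, occurred in neither, and in 12.6% of all hairpins. The related motif UAAU occurred once in each, beginning at base 32 of miR-361 and at base 55 of miR-652, in both cases between the arms. UAAU occurred in 15.3% of all hairpins, and UAAC or UAAU in 25.1%. A match is a description of letters and not a binding site, and a missing match concerns these windows only.

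miR-361-5p, which other work has shown to repress the growth factor gene VEGFA, was at 25.6 RPM in QKI5 cells (168 reads), against 95.05 RPM in GFP cells (2211 reads). It was 3.71-fold lower with QKI5 (3.17 to 4.36), and it stood at rank 261 of the listed miRNAs in QKI5 cells and at rank 152 in GFP cells. miR-361-3p went the other way, at 33.4 RPM in QKI5 cells (219 reads) and 13.3 RPM in GFP cells (310 reads). It was 2.51-fold higher with QKI5 (2.10 to 2.99), and its rank was 234 in QKI5 cells and 291 in GFP cells. The counting intervals of the levels did not overlap between libraries for either arm. The interval of miR-361-5p was 21.9 to 29.8 RPM in QKI5 cells and 91.1 to 99.1 RPM in GFP cells.

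miR-652-5p was at 34.5 RPM in QKI5 cells (226 reads), against 78.8 RPM in GFP cells (1833 reads), 2.29-fold lower with QKI5 (1.99 to 2.64). miR-652-3p was at 53.9 RPM in QKI5 cells (353 reads), against 20.03 RPM in GFP cells (466 reads), 2.69-fold higher with QKI5 (2.33 to 3.09). The 5p arm stood at rank 231 in QKI5 cells and 164 in GFP cells, and the 3p arm at rank 196 and 256 in the same order. Both hairpins thus showed a lower 5p arm and a higher 3p arm in QKI5 cells. The 2 ratios of the 3p arms lay within each other's counting intervals, while the interval of the miR-361-5p fold lay wholly above that of the miR-652-5p fold.

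**Figure D1:**
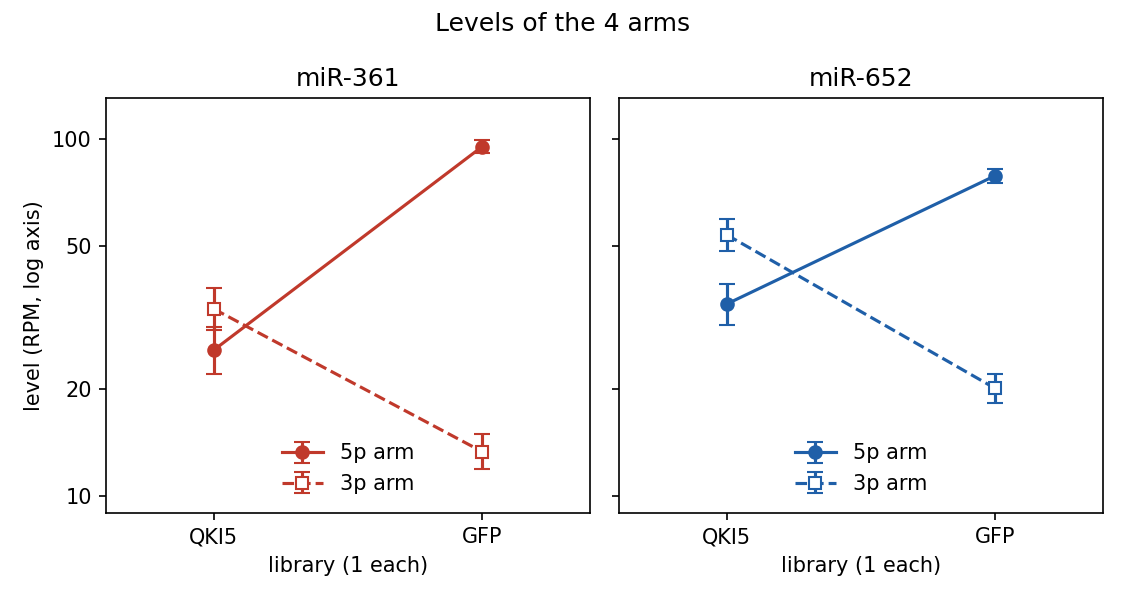
Level of each arm in RPM on a log axis in the QKI5 and GFP libraries, 1 library each, with exact 95% Poisson intervals for counting error. Lines join the values of 1 arm. In both hairpins the 5p arm is the lower one in QKI5 cells and the higher one in GFP cells.

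By the mean of both libraries, miR-361-5p ranked 195 and miR-652-5p ranked 200, so both 5p arms were among the 200 most abundant miRNAs and the 3p arms, at ranks 259 and 225, were not. Of these 200, 14 were at least 2-fold lower with QKI5 (7%) and 30 at least 2-fold higher (15%). The 2 5p arms are among the 14. This balance turned round with scaling, to 53 lower and 8 higher with a trimmed mean of log ratios and 20 lower and 18 higher under quantile normalization. On the log2 scale, with a pseudocount of 0.153 RPM, miR-361-5p was at -1.88, the second lowest of the 200, and miR-652-5p at -1.19, the 11th lowest. The 3p arms were at 1.32 for miR-361-3p and 1.42 for miR-652-3p. The ratios of the 200 had a median of 0.06 and an SD of 0.86 across miRNAs, which is not a replicate error. Nothing is read from the counts, since the arms were chosen on this contrast.

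The levels of single arms depend on the factor by which the libraries are scaled to each other, but the ratio of the arms within a library does not. The 5p arm made up 43.4% of the miR-361 reads of QKI5 cells (38.4% to 48.5%, Clopper-Pearson, 387 reads), against 87.7% in GFP cells (86.4% to 89.0%, 2521 reads). For miR-652 it made up 39.0% in QKI5 cells (35.0% to 43.1%, 579 reads), against 79.7% in GFP cells (78.0% to 81.4%, 2299 reads). In both hairpins the 3p arm was the more abundant in QKI5 cells and the 5p arm in GFP cells, and each of the 4 intervals stayed on its own side of 50%.

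There were 0.767 miR-361-5p reads per miR-361-3p read in QKI5 cells, against 7.13 in GFP cells. For miR-652 there were 0.640 reads of the 5p arm per read of the 3p arm in QKI5 cells and 3.93 in GFP cells. The odds of a 5p read were 9.30-fold lower with QKI5 for miR-361 (exact conditional interval 7.31 to 11.8) and 6.14-fold lower for miR-652 (5.03 to 7.51). Had the QKI5 library kept the GFP shares, its 387 miR-361 reads would have held 47.6 of the 3p arm, against 219 found, and its 579 miR-652 reads would have held 117, against 353 found.

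**Figure D2:**
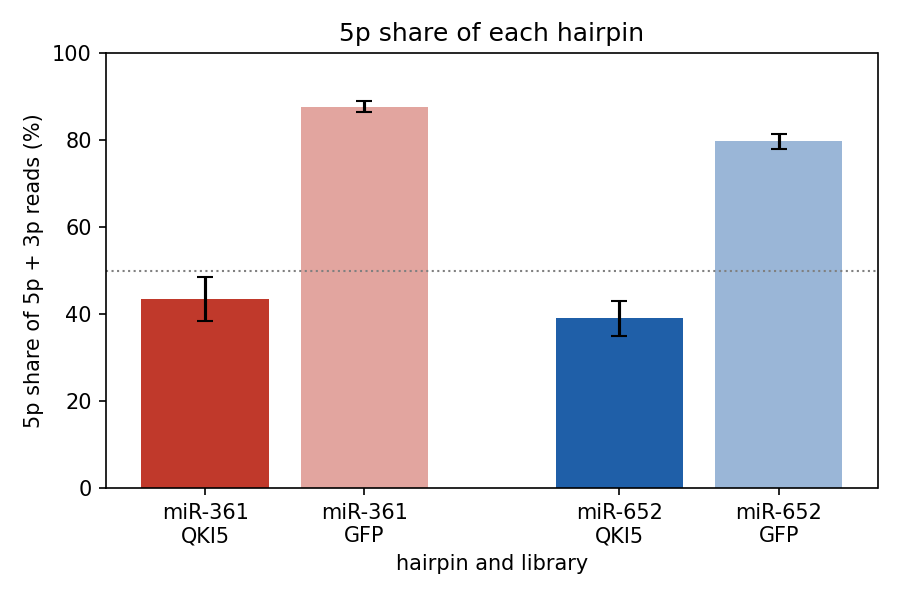
Share of 5p reads among the 5p and 3p reads of each hairpin, in percent, with exact 95% binomial intervals for counting error. The dotted line marks equal arms. The QKI5 bars, at 43.4% and 39.0%, lie below it and the GFP bars, at 87.7% and 79.7%, above it.

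As deposited, the summed level of both arms differed less than either arm did, and it differed more for miR-361. miR-361 summed to 59.0 RPM in QKI5 cells and 108 RPM in GFP cells, 1.84-fold lower with QKI5 (1.65 to 2.05). miR-652 summed to 88.3 RPM in QKI5 cells and 98.8 RPM in GFP cells, a ratio of 0.894 (0.815 to 0.980). The sums depend on scaling. The ratio of the miR-652 sums ran from 0.602 with a trimmed mean of log ratios to 0.996 with each column scaled to its listed miRNAs, and that of the miR-361 sums from 0.367 to 0.607 under the same 2 settings. Fewer cells that make a miRNA and less of it per cell cannot be told apart in such bulk libraries.

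The arm shift is the log2 ratio of the 5p arm minus that of the 3p arm, QKI5 over GFP. It was -3.20 for miR-361 (-3.56 to -2.87) and -2.61 for miR-652 (-2.91 to -2.33). It was also computed for all hairpins listed with a 5p and a 3p arm of the same name, each arm at a mean of at least 10 RPM, which left 80 of 684 hairpins. Shifts were common among them. In all, 32 of the 80 shifted by at least 2-fold (40%), of which 16 shifted away from 5p (20%) and 16 towards 5p (20%). The median shift was 0.09, the median size 0.75, and the SD across hairpins 1.17. miR-361 and miR-652 had the lowest and second lowest shift of the 80, and by size, in either direction, their ranks were 1 and 4.

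Opposite signs of the arms were also common, with the 5p arm lower and the 3p arm higher in 20 of the 80 hairpins (25%) and the reverse in 16 (20%). miR-361 and miR-652, chosen for it, were the hairpins, 2 of 80 (2.5%), in which the 5p arm was at least 2-fold lower and the 3p arm at least 2-fold higher. miR-539 passed 2-fold on both sides in the other direction, at log2 ratios of 1.99 for the 5p arm and -1.11 for the 3p arm. With libraries scaled by a trimmed mean of log ratios the 3p arms fell short of 2-fold, at log2 ratios of 0.75 for miR-361-3p and 0.85 for miR-652-3p. miR-361 and miR-652 were also the 2 of 80 in which the majority of reads lay on the 5p arm in GFP cells and on the 3p arm in QKI5 cells. In 5 of the 80 (6.25%) the more abundant arm differed between libraries, and the other 3, miR-154, miR-744 and miR-539, had more 5p reads in QKI5 cells.

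**Figure D3:**
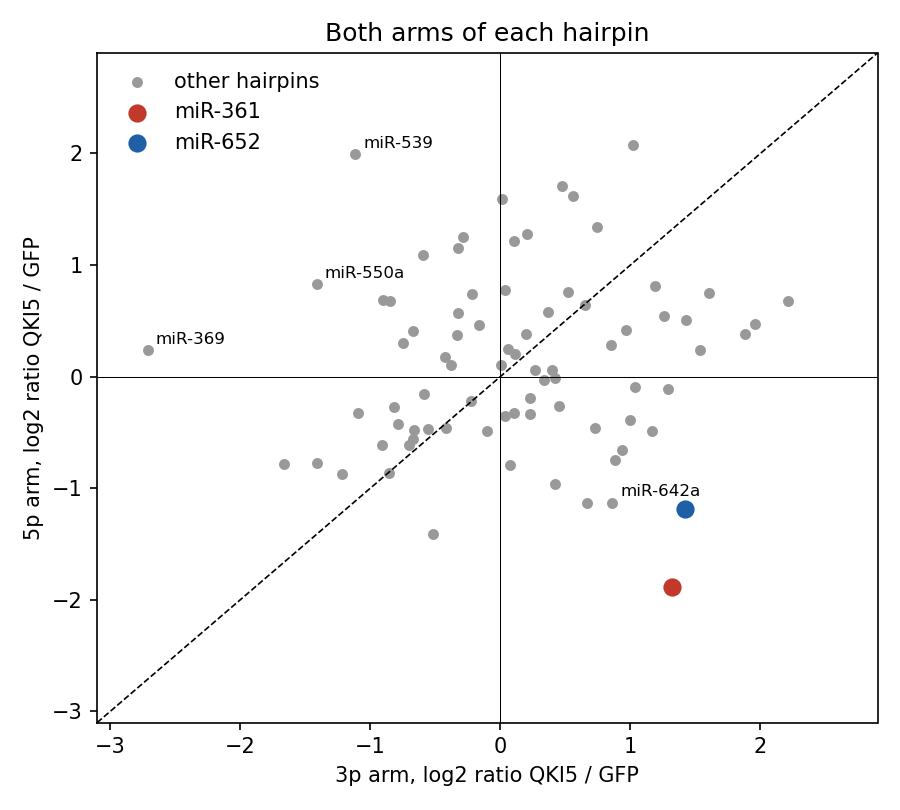
Log2 ratio of QKI5 over GFP for the 3p arm (horizontal) and the 5p arm (vertical) of 80 hairpins, 1 point each, with equal ratios on the dashed line. miR-361 and miR-652 lie at the lower right, with the 5p arm below -1 and the 3p arm above 1.

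The hairpins nearest to both in arm shift were miR-642a and miR-106b. miR-642a had a shift of -1.98, with 66.0% of its reads on the 5p arm in QKI5 cells and 88.5% in GFP cells. miR-106b, from the cluster inside MCM7, had a shift of -1.80, with 84.3% in QKI5 cells and 94.9% in GFP cells. miR-130b followed at -1.66. In these hairpins the arm with more reads was the same in both libraries.

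Of the shifts towards the 5p arm, those of miR-539 and miR-369 were of a size like those of miR-361 and miR-652. miR-539 had a shift of 3.11, with 74.7% of its reads on the 5p arm in QKI5 cells and 25.4% in GFP cells. miR-369 stood at 2.95. The next were smaller than both, with miR-550a at 2.24, miR-654 at 1.69 and miR-144 at 1.59.

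miR-361 and miR-652 belonged to the less abundant of the hairpins compared, at ranks 70 and 68 of 80 by the mean summed level (83.7 and 93.6 RPM). Shifts were more spread among such hairpins. The 38 others in the less abundant part of the 80, at up to 619 RPM, had an SD of 1.23 and 20 of them shifted by at least 2-fold. The 40 more abundant ones had an SD of 0.87, with 10 at 2-fold or more. The part of level in the shifts was not tested.

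**Figure D4:**
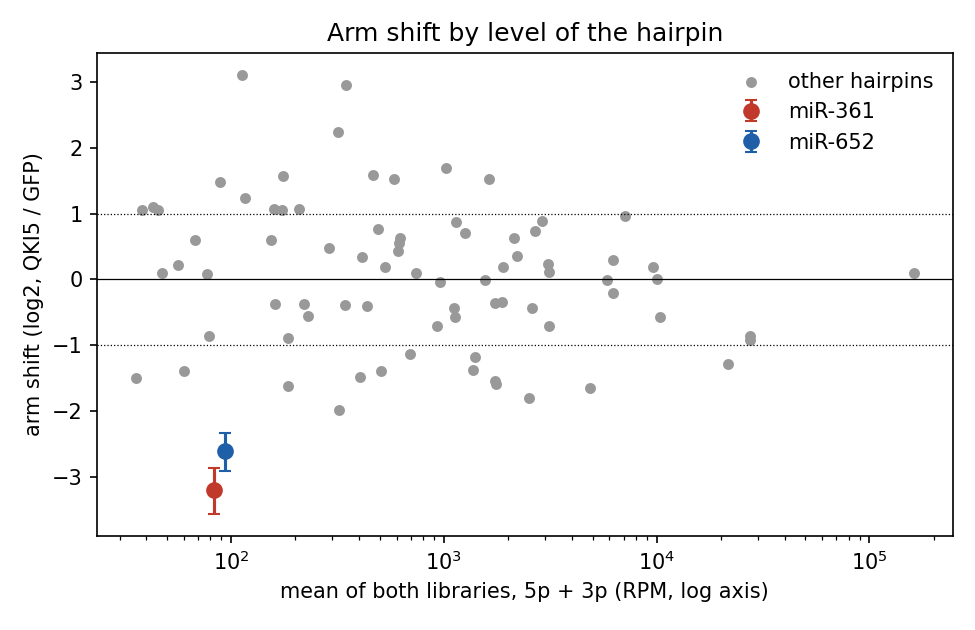
Arm shift (log2, QKI5 over GFP) of 80 hairpins against the mean of both libraries for the summed arms, in RPM on a log axis. Bars on miR-361 and miR-652 are exact 95% intervals for counting error, and dotted lines mark 2-fold. Both lie at the low end of the level axis and below every other hairpin.

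The GC content was 45.5% for miR-361-5p and 47.8% for miR-361-3p, and 56.0% for miR-652-5p and 57.1% for miR-652-3p. The difference of 5p minus 3p was -2.37 points for miR-361 and -1.14 points for miR-652, while it ran from -20.8 to 21.6 points over the 74 hairpins with both sequences in the table. Across these 74 hairpins of the same pair of libraries, the GC difference and the arm shift had a Pearson's r of 0.35 and a Spearman's rho of 0.27, given as a description. A linear trend of the log2 ratios of single miRNAs on GC content had a slope of 0.0192 per point. It was fitted over the 186 of the 200 most abundant miRNAs that have a sequence. With this trend removed, the shifts were -3.16 for miR-361 and -2.59 for miR-652, the lowest and second lowest of the 74. GC differences as small as those of these 2 hairpins leave little to remove, so the ranks follow from the choice of the hairpins. Among the 37 hairpins whose arms lie within 5 points of GC content, miR-361 and miR-652 included, the median size of the shift was 0.71. Of these 37, 15 shifted by at least 2-fold, against 32 of all 80 hairpins (40%). The part of base composition in the shifts was not tested.

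Other hairpins of the X chromosome were described from a list of 42 X-linked hairpins, which holds both members. Of these, 7 had both arms past the level filter. The 5 besides miR-361 and miR-652 had a median shift of 0.60, against 0.09 over all 80. miR-500a, from the cluster inside CLCN5, shifted away from 5p, at -1.50, and its cluster neighbour miR-532 towards 5p, at 1.07. The 3p arm of miR-500a was at 17.7 RPM in QKI5 cells and 4.69 RPM in GFP cells. It passed the filter of 10 RPM in mean only through its QKI5 level, and miR-500a had the lowest mean summed level of the 80. miR-362 (0.60), miR-374b (0.63) and the leukocyte miRNA miR-223 (0.19) lay within 2-fold. None of the 5 had a lower 5p arm together with a higher 3p arm, against 20 of all 80 hairpins (25%). With 5 hairpins nothing is read from this count or from their median.

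A second list held 24 hairpins taken as giving both arms in many cells, of which 16 passed the filter. In these libraries some of them had nearly all reads on 1 arm. The 14 besides miR-361 and miR-652 had a median shift of 0.10. Of these 14, 3 shifted away from 5p by at least 2-fold, miR-151a (-1.54), miR-423 (-1.49) and miR-339 (-1.19). Another 4 shifted towards 5p, from 1.05 for miR-629 to 1.07 for miR-532. Over all 80 hairpins, 20% shifted away from 5p by at least 2-fold and 20% towards it. Nothing is read from the counts of the 14. In miR-151a and miR-423 both arms were higher with QKI5 and the 3p arm more so, whereas in miR-339 the 5p arm stood at a log2 ratio of -0.46 and the 3p arm at 0.73. The 5p share of miR-151a was 97.4% in QKI5 cells and 99.1% in GFP cells, and that of miR-339 95.6% and 98.0% in the same order. Their shifts thus concern a small minor arm, whereas the 5p share of miR-423 was 65.0% in QKI5 cells and 84.0% in GFP cells.

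By distance in log2 RPM over the 2 libraries, the miRNA nearest to miR-361-5p was miR-652-5p (distance 0.50), followed by miR-539-3p (0.55) and miR-369-3p (0.60). Those nearest to miR-652-5p were miR-539-3p (0.15), miR-1197 (0.25) and miR-495-5p (0.28). The 3p arms had closer neighbours. miR-361-3p lay nearest to miR-125a-3p (0.06), miR-134-5p (0.08) and miR-149-5p (0.09). miR-652-3p lay nearest to miR-196a-5p (0.10), at 54.6 RPM in QKI5 cells and 18.7 RPM in GFP cells, then to miR-654-5p (0.23) and miR-4531 (0.29). With 2 libraries this likeness rests on 2 values per miRNA.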

How the data were processed

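Small RNA of K562 cells was isolated with a miRNA kit and sequenced on an Ion Proton, per the labels' protocols. Bowtie 0.12.3 and hg19 stand in the submitters' processing notes. Annotation, mismatches, multi-mapping and strand were not given in the sources used here. Although the table is named RPKM, its values are RPM as deposited by the authors: in each column 100% of the values above 0 were whole multiples of 1 step, within 0.1 of a read. The step gave the read totals and whole reads (3899030 listed reads for QKI5 and 15418197 for GFP), on which all intervals rest. There were no molecular identifiers, so reads need not be separate molecules.

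The members, lists and settings were chosen with earlier results of these data known. The design had no test, with 1 library per group. The log2 ratio is that of RPM + 0.153, the larger of the smallest values above 0, and understates the change of low miRNAs. Named hairpins and miRNAs are the members, seed relatives, the 3 nearest, the 5 largest shifts each way and the 3 largest of each list, members included. miR-362, miR-374b, miR-223, miR-532, miR-423, miR-339, miR-629, miR-154 and miR-744 were named after their values were seen. Alternatives covered pseudocount, scaling, depth, filter, fold and GC content. An exact binomial test of the reads, Benjamini-Hochberg adjusted at 0.05, compares these 2 libraries and not the conditions; it called 426 of 1995 detected miRNAs. Calculations were tested on simulated data and used Python 3.11.15, numpy 2.4.6, scipy 1.17.1, pandas 2.3.3 and matplotlib 3.10.9.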

Additional observations from a re-analysis of the deposited data

How the results depend on the processing

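Under the settings compared, all 4 arms kept the direction of their log2 ratio, and of the 40 alternative values of the arms and arm shifts 31 stayed within the counting interval. Over the settings of pseudocount, depth and GC content, the arm shift ran from -3.32 to -3.06 for miR-361 and from -2.61 to -2.51 for miR-652. Scaling by 1 factor per library cancels in it. Quantile normalization does not scale by 1 factor, and the range does not cover it. The single arms moved with scaling. Quantile normalization gave log2 ratios of -2.22 for miR-361-5p, 1.04 for miR-361-3p, -1.43 for miR-652-5p and 1.14 for miR-652-3p. A trimmed mean of log ratios gave -2.45, 0.75, -1.76 and 0.85 in the same order, so that both 3p arms fell under 2-fold. With the GC trend removed miR-652-3p stood at 1.21. The median of the 200 was -0.51 with the trimmed mean, 0.21 with each column scaled to its listed miRNAs and -0.05 when the 10 most abundant were left out, against 0.06. The share of higher calls, 68.2%, was 47.4% under quantile normalization, 56.1% without the 10 most abundant, 77.4% with each column scaled to its listed miRNAs and 13.1% with the trimmed mean. Scaling of the summed arms was added after seeing the data. The miR-361 sum stayed lower with QKI5 under the 4 scalings. The miR-652 sum was nearly equal with each column scaled to its listed miRNAs, at a ratio of 0.996, and lower under the others.

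The count of 44 of the 200 past 2-fold was 99 at 1.5-fold and 11 at 3-fold. It was 112 of the 400 most abundant, and 620 of the 1995 detected miRNAs with no level filter. The exact binomial test of the reads, which sets no fold, called 182 of the 200. The count of 32 hairpins with a 2-fold shift was 12 at 3-fold. It was 58 of 167 with each arm at 1 RPM or more, and 11 of 35 with each arm at 50 RPM or more. Neither miR-361 nor miR-652 passed the filter of 50 RPM. Their shifts were the lowest of the 167, but the filter does not alter them and they were chosen on them, so this adds no support. No paired analysis was possible because each group has 1 library. The smallest count behind a member is 168 reads.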
